A study of Rattus norvegicus with 6 samples.

Results

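The genes described here are 42 regulators and enzymes of the cell division cycle, taken by symbol from the gene table of a series on Rat-1 cells, an established line of rat fibroblasts. Of these, 8 act in G1 and at the entry into S phase, 17 in DNA replication (S phase) and 17 in G2 and mitosis (G2/M). Rows for 41 of the 42 were analysed, among 17143 genes in all, and Bub1b was not analysed here. Wells of extracellular matrix (ECM) received 25000 cells each, RNA was taken 4 h later, and all 3 groups share the line, the seeding and the time point. The matrix was native in 2 libraries, had been remodelled by the collagenase MMP1 (matrix metalloproteinase 1) in 2, and by the collagenase MMP13 (matrix metalloproteinase 13) in 2, called the MMP1 and the MMP13 matrix here. The design asks how fibroblasts respond to matrix that either protease has degraded. The labels name the libraries duplicates without saying whether they came from separate cultures, so p-values speak only of how far these libraries lie apart, which can be technical in origin. The labels name no step that would synchronise the cells.

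In G1, cyclins D and their kinase Cdk4 begin to phosphorylate the retinoblastoma protein, and cyclins E complete this step, which frees E2F transcription factors to switch on the genes of S phase. The inhibitors Cdkn1a (p21) and Cdkn1b (p27) hold these kinases back. During S phase the MCM hexamer and the GINS complex unwind DNA, and in G2 and mitosis cyclins A and B with Cdk1, the Aurora and Polo kinases, motor proteins and the ubiquitin ligase APC/C carry the cell through division. Normal fibroblasts need attachment to matrix to pass from G1 into S phase.

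S and G2/M genes are known for different promoter elements, and the sequences below show examples from 6 of these genes. RefSeq promoters of the rat assembly GRCr8 were matched by symbol for 31 of the 42 genes. Each window covered 250 bases before and 50 after the gene start. An E2F motif, taken as any of TTGGCGC and TTCCCGC and TTGCCGC and TTCGCGC on either strand, was present in 11 of 13 S promoters, in 3 of 13 G2/M promoters, in 1 of 5 G1 promoters and in 9.52% of all 33469 promoter windows. The CHR motif TTTGAA, on either strand, the element through which G2/M genes are held silent in early cycle phases, was present in 9 of 13 G2/M promoters, 2 of 13 S promoters and 0 of 5 G1 promoters, against 18.3% of all windows. CCAAT boxes (CCAAT on either strand) were present in 10 of 13 G2/M, 8 of 13 S and 2 of 5 G1 promoters, against 37.5% of all windows. The lines give the 120 bases just before each gene start, 5′ to 3′ on the gene's strand. Capitals mark E2F motifs in Mcm2 and Mcm5, where 2 matches overlap in Mcm2. In the G2/M genes they mark CHR motifs (TTTGAA) and CCAAT boxes (CCAAT, or ATTGG on the other strand). The elements as searched do not part the 6 genes. Kif11 and Ccnb1 have CCAAT boxes and no TTTGAA, the only form of the CHR motif searched for. CCAAT boxes of Mcm5 are left in lower case, and the whole windows of Mcm2 and Cdk1 hold both an E2F and a CHR motif.
Mcm2, chr4:122918095-122918214, minus strand: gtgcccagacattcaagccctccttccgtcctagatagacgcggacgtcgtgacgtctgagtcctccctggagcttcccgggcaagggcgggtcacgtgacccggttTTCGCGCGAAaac
Mcm5, chr19:13488693-13488812, plus strand: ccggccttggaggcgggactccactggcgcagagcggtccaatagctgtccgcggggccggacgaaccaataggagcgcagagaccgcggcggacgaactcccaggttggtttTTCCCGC
Birc5, chr10:103572026-103572145, plus strand: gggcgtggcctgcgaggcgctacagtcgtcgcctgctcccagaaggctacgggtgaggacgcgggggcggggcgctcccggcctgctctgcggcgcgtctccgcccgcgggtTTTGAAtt
Cdk1, chr20:19265173-19265292, plus strand: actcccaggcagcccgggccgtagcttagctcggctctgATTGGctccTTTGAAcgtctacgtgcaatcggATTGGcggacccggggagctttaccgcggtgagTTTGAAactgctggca
Kif11, chr1:244536747-244536866, plus strand: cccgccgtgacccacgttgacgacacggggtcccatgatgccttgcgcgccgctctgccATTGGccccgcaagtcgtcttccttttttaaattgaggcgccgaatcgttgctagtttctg
Ccnb1, chr2:33655226-33655345, minus strand: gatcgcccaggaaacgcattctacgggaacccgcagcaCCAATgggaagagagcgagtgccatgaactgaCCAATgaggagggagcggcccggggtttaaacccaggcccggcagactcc

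Values are given in units, the reads of a gene after the authors divided them by a size factor of the library. Whole reads could be recovered from them, 161817 to 362122 per library, and 3 reads, the most that a count of 0 allows, made 2.21 to 5.04 units. Floors and intervals on shares of reads hold counting error alone. From the 41 genes, 39 passed a filter of at least 5 units in at least 2 libraries and were tested, with a median of 23 reads per gene and library, and 14 of them had at least 20 reads in every library. Because the libraries count 3' ends and values are not divided by length, levels are compared between libraries within a gene and not between genes. Fibroblast markers took 2.39% to 2.68% of reads with 9 of 10 detected above the filter (Lum was at 0), and each of 6 marker lists of other cell types took at most 0.01%. The leukocyte list took 0.0050% to 0.0060% on native, 0.0093% to 0.0098% on the MMP1 and 0.0056% to 0.0077% on the MMP13 matrix, and its part was not tested. The ribosomal RNA entry Rn45s took 0.293% and 0.347% of reads on native and 0.661% to 0.968% on the protease-treated matrices, and its part in the results below was not tested.

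**Figure D1:**
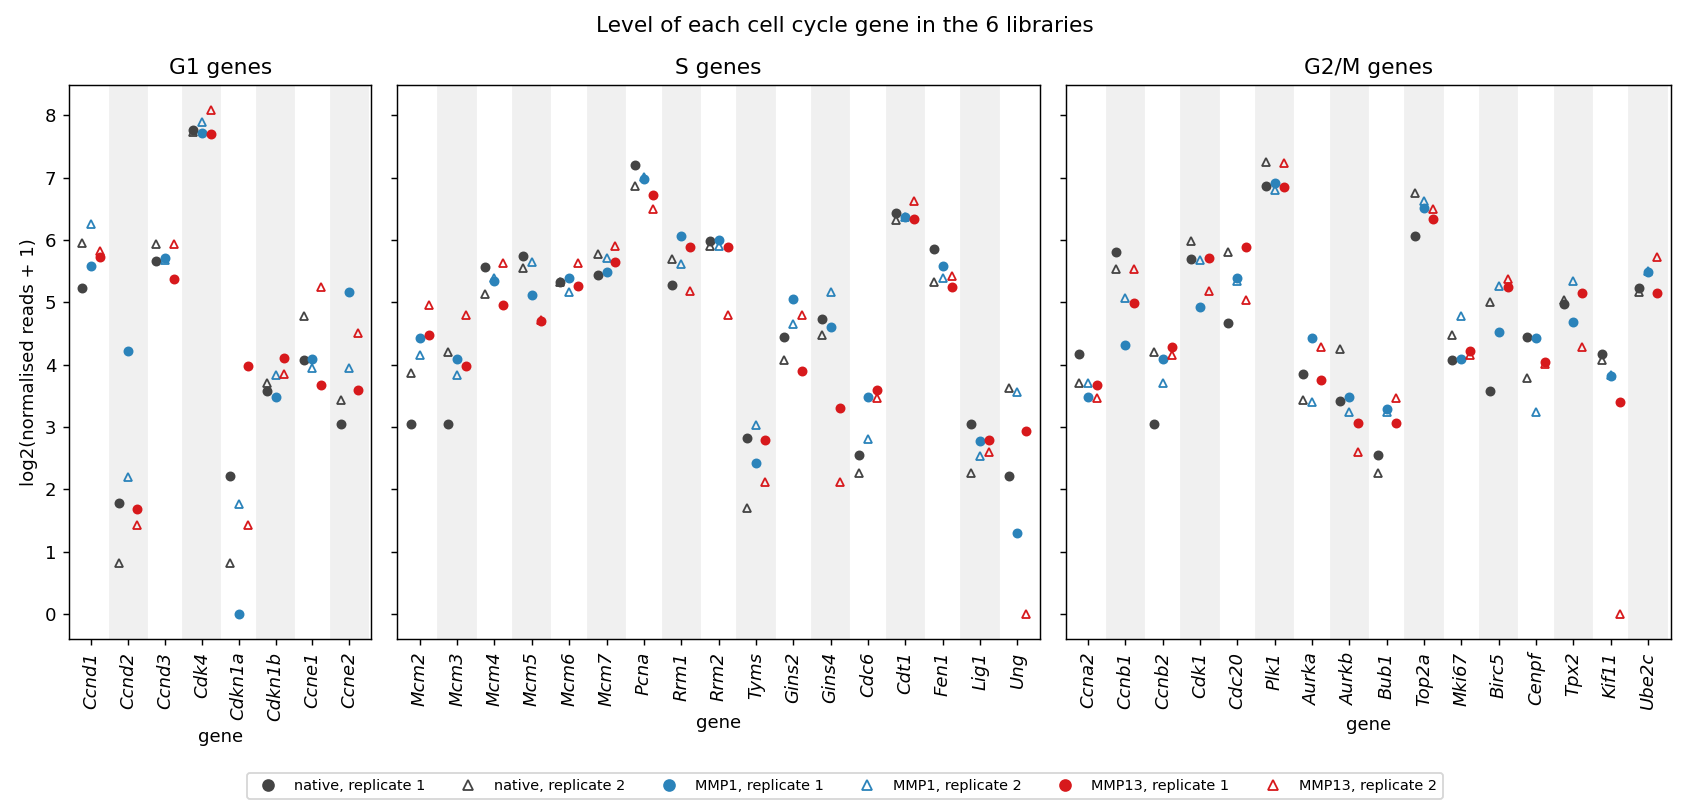
Level of the 41 analysed cell cycle genes in each library, as log2(normalised reads + 1), with genes on the horizontal axis grouped by phase and 1 marker per library (colour for the matrix, filled for replicate 1, open for replicate 2). For many genes the markers of the 3 matrices overlap. Both MMP13 markers lie below the native ones for Mcm5, Pcna, Rrm2, Gins4, Ccna2, Aurkb and Kif11. They lie above the native ones for Cdkn1b, Ccne2, Mcm2, Cdc6, Bub1 and Birc5. Kif11 and Ung are at 0 in MMP13 replicate 2.

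None of the 39 tested cell cycle genes passed the test in any comparison, at a Benjamini-Hochberg adjusted p under 0.05 over 7284 genes in a limma fit of log2(units + 1). That was 0 of 39 for MMP1 against native, where 0.151% of all tested genes passed, 0 of 39 for MMP13 against native, where 0.412% passed, and 0 of 39 for MMP13 against MMP1, where 0.0412% passed. By edgeR 0 of 33 and by DESeq2 0 genes of the group passed in each comparison. DESeq2 gave 5 of them an adjusted p for MMP13 against native and 41 in either other comparison. At an unadjusted limma p under 0.05, 2 of 39 lay under that mark on the MMP1 matrix (background 8.24%), 5 of 39 on the MMP13 matrix (background 8.05%) and 2 of 39 between the proteases (background 5.22%). By edgeR these counts were 2, 3 and 1, and by DESeq2 2, 2 and 1. The comparisons share their libraries, so their counts are not independent of each other.

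Summed over genes, the G1 and G2/M genes took overlapping shares of the reads on the 3 matrices, and the S genes a slightly smaller one on the MMP13 matrix. Such sums weigh abundant genes most. Without Pcna the mean S share was 0.188% on the native, 0.195% on the MMP1 and 0.177% on the MMP13 matrix. Taken gene by gene, 10 of 17 S genes had a log2 fold above 0 and 7 below for MMP13 against native. In bulk RNA such as this, fewer cycling cells and less RNA per cycling cell cannot be told apart. The G1 genes took 0.128% (95% Wilson interval 0.114 to 0.144) and 0.146% (0.134 to 0.159) of reads in the native libraries. On the MMP1 matrix they took 0.144% (0.128 to 0.162) and 0.152% (0.137 to 0.169), and on the MMP13 matrix 0.134% (0.122 to 0.146) and 0.170% (0.151 to 0.191). The 3 groups overlap, with means of 0.137% ± 0.013, 0.148% ± 0.0056 and 0.152% ± 0.026 (SD, n = 2 each).

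The S genes took 0.243% (0.224 to 0.265) and 0.231% (0.215 to 0.247) of reads on native matrix. They took 0.243% (0.222 to 0.267) and 0.241% (0.222 to 0.262) on the MMP1 and 0.213% (0.198 to 0.229) and 0.213% (0.191 to 0.236) on the MMP13 matrix. Both MMP13 values lie below the other 4, though their counting intervals overlap those of every other library. For the G2/M genes the native libraries set both ends of the range, at 0.185% (0.168 to 0.204) and 0.240% (0.224 to 0.257). The MMP1 libraries lay at 0.188% (0.169 to 0.209) and 0.203% (0.186 to 0.223) and the MMP13 libraries at 0.203% (0.189 to 0.218) and 0.204% (0.183 to 0.227). The 2 native libraries thus differed by more than their counting intervals, and all libraries of the protease-treated matrices lay between them.

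**Figure D2:**
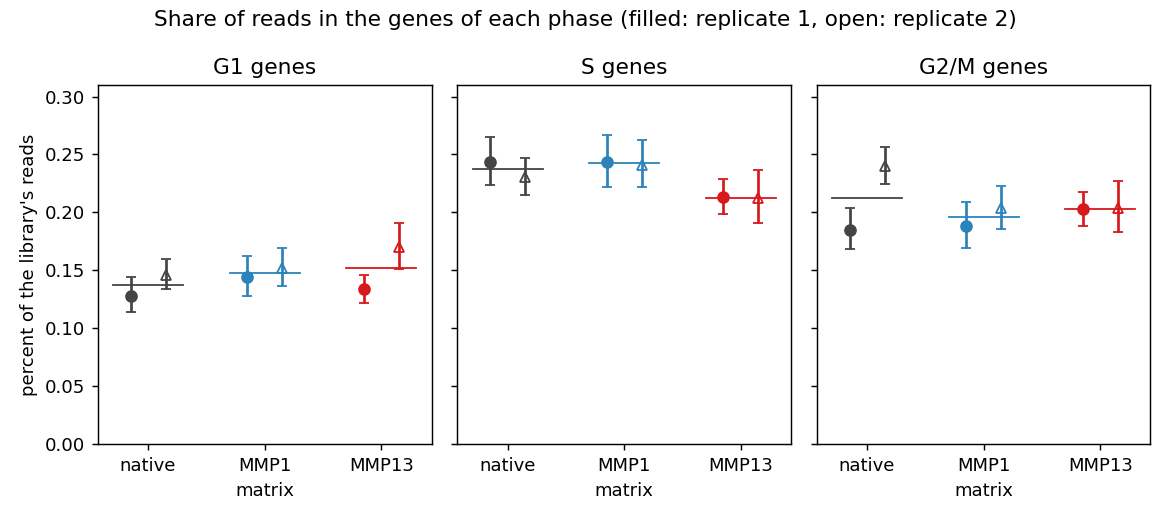
Percent of each library's reads (vertical axis, from 0) in the G1, S and G2/M genes, by matrix, with 1 point per library, 95% Wilson counting intervals as bars and group means as lines. The MMP13 libraries lie at 0.213% for the S genes, below the native and MMP1 points, and the native libraries spread from 0.185% to 0.240% for the G2/M genes.

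Among the G1 genes, the tested D cyclins, Ccnd1 and Ccnd3, and their kinase Cdk4 lay at overlapping levels on all matrices. Cyclin D1, Ccnd1, whose transcription growth factor and adhesion signals feed, was at 36.5 and 61.1 units on the native matrix, 46.7 and 75.6 on the MMP1 and 52.2 and 55.4 on the MMP13 matrix. The log2 fold was 0.33 (95% interval -0.30 to 0.95) on the MMP1 and 0.18 (-0.44 to 0.81) on the MMP13 matrix. Its libraries overlap in each comparison, and the lowest is native replicate 1. Cyclin D3, Ccnd3, lay at 49.8 and 60.4 units on the native matrix, 51.1 and 50.4 on the MMP1 and 40.4 and 60.5 on the MMP13 matrix.

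Cdk4, the kinase partner of the D cyclins, was at 216 and 212 units on the native matrix, 210 and 236 on the MMP1 and 207 and 270 on the MMP13 matrix. With 144 to 282 reads per library it was the most deeply read gene of the group. Its log2 fold was 0.06 (-0.30 to 0.41) on the MMP1 and 0.14 (-0.21 to 0.50) on the MMP13 matrix, intervals that leave out a change of 2-fold or more. In GRCr8 its span overlaps that of Tspan31, and because strand use is not given in the sources used here, reads of the pair cannot be told apart. Cyclin D2, Ccnd2, did not pass the filter: it had 1 to 3 reads in 5 libraries and 12 in MMP1 replicate 1.

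The inhibitor Cdkn1a, a p53 target, was near its floor, at 3, 1, 0, 2 and 1 reads in 5 libraries, with 20 reads (14.7 units) in MMP13 replicate 1, and was not tested. That 1 library stands apart from its own replicate, at 1.68 units. The other inhibitor, Cdkn1b, was at 10.9 and 12.1 units on the native matrix, 10.2 and 13.2 on the MMP1 and 16.2 and 13.4 on the MMP13 matrix. Both MMP13 libraries of Cdkn1b lie above the rest, with a log2 fold over native of 0.33 (SE 0.59) at 7 to 22 reads per library.

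Of the E cyclins, which activate Cdk2 at the start of S phase, Ccne1 was at 15.8 and 26.4 units on the native matrix, 16.1 and 14.4 on the MMP1 and 11.8 and 36.9 on the MMP13 matrix. The MMP13 libraries hold both its lowest and its highest value. Ccne2 was at 7.29 and 9.81 units on the native matrix, 35.0 and 14.4 on the MMP1 and 11 and 21.8 on the MMP13 matrix. All protease-treated libraries of Ccne2 lie above both native ones. The log2 fold was 1.32 (SE 0.56; limma adjusted p = 0.452) on the MMP1 and 0.81 (SE 0.56; adjusted p = 0.772) on the MMP13 matrix. Without MMP1 replicate 1 the first of these was 0.70, and in GRCr8 the span of Ccne2 overlaps that of Ints8.

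Among the S genes, the 6 subunits of the MCM hexamer, the ring that opens DNA ahead of the replication fork, had values on both sides of native. Mcm2 was at 7.29 and 13.6 units on the native matrix, 20.4 and 16.8 on the MMP1 and 21.3 and 30.2 on the MMP13 matrix. Its libraries do not overlap between any 2 groups, with native lowest and MMP13 highest. Over native the log2 fold was 0.83 (SE 0.52; adjusted p = 0.718) on the MMP1 and 1.26 (SE 0.52; limma adjusted p = 0.435) on the MMP13 matrix. Mcm3 went the same way by value, at 7.29 and 17.4 units on the native matrix, 16.1 and 13.2 on the MMP1 and 14.7 and 26.9 on the MMP13 matrix, with overlapping libraries.

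Mcm5 had the opposite order, at 52.3 and 46.0 units on the native matrix, 33.6 and 49.2 on the MMP1 and 25 and 25.2 on the MMP13 matrix. The MMP13 libraries lie below the other 4. The log2 fold for MMP13 against native was -0.94 (95% interval -1.67 to -0.21; limma adjusted p = 0.397) and for MMP1 against native -0.26 (-0.99 to 0.46). Mcm4 was at 46.2 and 34 units on the native matrix, 39.4 and 40.8 with MMP1 and 30.2 and 48.7 with MMP13. Mcm6 was at 38.9 and 39.2 units, then 40.9 and 34.8, then 37.5 and 48.7 in the same order, and Mcm7 at 42.5 and 53.6, 43.8 and 51.6, and 49.3 and 58.8. These 3 genes overlapped between groups, and each had log2 folds between -0.05 and 0.17 over native on either matrix. Mcm2 and Mcm5 both carry the E2F motif shown above, and had log2 folds of opposite sign on the MMP13 matrix. Across the 11 S genes with that motif, log2 folds on the MMP13 matrix ran from -1.45 (Ung) to 1.26 (Mcm2), with a median of 0.10.

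The loading factors that place the MCM ring on DNA gave small numbers or flat levels. Cdc6 was at 4.86 and 3.77 units on the native matrix, 10.2 and 6 on the MMP1 and 11 and 10.1 on the MMP13 matrix. All 4 protease-treated libraries of Cdc6 lie above native, at 4 to 15 reads per library, with log2 folds of 0.74 (SE 0.77) and 1.13 (SE 0.77). Cdt1 was at 85.1 and 79.2 units on the native matrix, 81.8 and 81.6 on the MMP1 and 79.4 and 97.4 on the MMP13 matrix. Its log2 fold was -0.01 (95% interval -0.53 to 0.51) on the MMP1 and 0.10 (-0.42 to 0.62) on the MMP13 matrix.

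Gins4, a subunit of the GINS complex that joins the MCM ring to form the active helicase, had the smallest adjusted p of the group. It had 21 and 28 reads on native, 16 and 29 on the MMP1 and 12 and 2 on the MMP13 matrix. In units these were 25.5 and 21.1, 23.4 and 34.8, and 8.82 and 3.36. Both MMP13 libraries lie below the other 4. The log2 fold was -1.89 (SE 0.54; limma adjusted p = 0.083) for MMP13 against native, -2.17 (SE 0.54; adjusted p = 0.0939) for MMP13 against MMP1 and 0.29 (SE 0.54; adjusted p = 0.936) for MMP1 against native. By unadjusted p Gins4 ranked 38 among the 7284 genes for MMP13 against native and 4 for MMP13 against MMP1.

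Without MMP13 replicate 1, the deepest library, Gins4 passed against native (log2 fold -2.47, limma adjusted p = 0.0244) and against MMP1 (-2.76, 0.0060), resting then on 1 MMP13 library with 2 reads. Over its alternatives the adjusted p against native ran from 0.0244 to 0.999 and against MMP1 from 0.0060 to 1.00, and the log2 fold from -2.47 to -1.30 and from -2.76 to -1.59. The edgeR adjusted p was 0.143 and 0.240. Gins2, another subunit of the same complex, was at 20.7 and 15.8 units on the native matrix, 32.1 and 24 on the MMP1 and 14.0 and 26.9 on the MMP13 matrix. Its MMP1 libraries lie above native (log2 fold 0.59, SE 0.47) and its MMP13 libraries hold native between them.

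Pcna, the sliding clamp of the DNA polymerases, was at 146 and 115 units on the native matrix, 126 and 128 on the MMP1 and 104 and 89.0 on the MMP13 matrix. Both MMP13 libraries of Pcna lie below the other 4, with a log2 fold against native of -0.43 (95% interval -0.88 to 0.03; adjusted p = 0.65). Rrm2, the regulatory subunit of ribonucleotide reductase, which makes deoxyribonucleotides, was at 62.0 and 58.9 units on the native matrix, 62.8 and 58.8 on the MMP1 and 58.1 and 26.9 on the MMP13 matrix. Here 1 library, MMP13 replicate 2, is low, and the log2 fold against native was -0.60 (-1.23 to 0.03). The catalytic subunit gene Rrm1 was at 37.7 and 50.6 units on native, 65.7 and 48.0 with MMP1 and 58.1 and 35.3 with MMP13, and its groups overlap.

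Of the remaining S genes, the flap nuclease Fen1 was at 57.1 and 39.2 units on native, 46.7 and 40.8 with MMP1 and 36.8 and 42 with MMP13, with its highest value in native replicate 1. The thymidylate synthase gene Tyms was at 6.08 and 2.26 units on native, 4.38 and 7.20 with MMP1 and 5.88 and 3.36 with MMP13, which is 2 to 8 reads per library. The ligase gene Lig1, with 3 to 8 reads, was at 7.29 and 3.77, 5.84 and 4.80, and 5.88 and 5.04 units. The uracil glycosylase gene Ung had 15, 9 and 9 reads in 1 library of each group and 3, 1 and 0 in the other, or 3.65 and 11.3 units on native, 1.46 and 10.8 with MMP1 and 6.62 and 0 with MMP13, so its replicates differed more than its groups. At these counts a change of 2-fold was not detectable for these 3 genes, whose SE ran from 0.89 to 1.05 on the log2 scale.

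Among the G2/M genes, cyclin B1, Ccnb1, the partner that activates Cdk1 at the entry into mitosis, had the smallest p of the 39 genes on the MMP1 matrix. It was at 54.7 and 45.3 units on the native matrix, 19.0 and 32.4 on the MMP1 and 30.9 and 45.3 on the MMP13 matrix. Both MMP1 libraries lie below both native ones, and the MMP13 libraries meet the native range. The log2 fold was -0.97 (95% interval -1.71 to -0.24; limma adjusted p = 0.347) on the MMP1 and -0.40 (-1.14 to 0.33; adjusted p = 0.855) on the MMP13 matrix. Over all alternatives the MMP1 fold ran from -1.35 to -0.60 with adjusted p of 0.247 to 1.00.

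Cdk1 itself was at 51.1 and 62.6 units on the native matrix, 29.2 and 50.4 on the MMP1 and 51.5 and 35.3 on the MMP13 matrix. Its MMP1 libraries lie below native (log2 fold -0.55, SE 0.34; adjusted p = 0.715) and its MMP13 libraries overlap native. Cyclin A2, Ccna2, which serves S phase and G2, was at 17 and 12.1 units on the native matrix, 10.2 and 12 on the MMP1 and 11.8 and 10.1 on the MMP13 matrix. All 4 protease-treated libraries of Ccna2 lie below native by a small margin, with log2 folds of -0.35 and -0.37 (SE 0.61 each). The second B cyclin, Ccnb2, did not share this order: it was at 7.29 and 17.4 units on the native matrix, 16.1 and 12 on the MMP1 and 18.4 and 16.8 on the MMP13 matrix.

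Kif11, the kinesin motor that pushes spindle poles apart, had 14 and 21 reads on native, 9 and 11 on the MMP1 and 13 and 0 on the MMP13 matrix. In units these were 17 and 15.8, 13.1 and 13.2, and 9.56 and 0, where 0 reads allow up to 5.04 units. The libraries of the 3 groups do not overlap, with native highest and MMP13 lowest. The log2 fold for MMP13 against native was -2.42 (SE 0.72; limma adjusted p = 0.12), and that against MMP1 was -2.12 (SE 0.72; adjusted p = 0.721).

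The size of the Kif11 fold depends on its empty library. Without MMP13 replicate 2 the log2 fold against native was -0.72 (adjusted p = 0.996), and without MMP13 replicate 1 it was -4.12 (adjusted p = 0.0019), over an adjusted p range of 0.0019 to 0.999. Against MMP1 these folds were -0.42 (adjusted p = 1.00) and -3.83 (0.0080). By edgeR the fold against native was -1.43 (adjusted p = 0.526). In GRCr8 the span of Kif11 overlaps those of Ide and 2 unnamed loci, so reads could be shared.

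Birc5, survivin, a subunit of the chromosomal passenger complex, was at 10.9 and 30.9 units on the native matrix, 21.9 and 37.2 on the MMP1 and 36.8 and 40.3 on the MMP13 matrix. Both MMP13 libraries lie above native, with a log2 fold of 1.02 (95% interval 0.19 to 1.84; limma adjusted p = 0.44). Native replicate 1 is low, and without it the log2 fold of Birc5 was 0.31. Aurkb, the kinase of the same complex, had the opposite order, at 9.72 and 18.1 units on the native matrix, 10.2 and 8.40 on the MMP1 and 7.35 and 5.04 on the MMP13 matrix (log2 fold -1.01 on the MMP13, SE 0.69).

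The other mitotic kinases and their checkpoint partner showed no common order. Plk1, the Polo kinase, was at 115 and 152 units on the native matrix, 120 and 110 on the MMP1 and 114 and 149 on the MMP13 matrix. Its log2 fold was -0.20 (95% interval -0.64 to 0.24) on the MMP1 and -0.02 (-0.46 to 0.42) on the MMP13 matrix. Aurka, the spindle pole kinase, was at 13.4 and 9.81 units on native, 20.4 and 9.60 with MMP1 and 12.5 and 18.5 with MMP13. Its activator Tpx2 was at 30.4 and 31.7 units, 24.8 and 39.6, and 34.6 and 18.5 in that order, and for both genes the groups overlap. The checkpoint kinase Bub1 was at 4.86 and 3.77 units on the native matrix, 8.76 and 8.40 on the MMP1 and 7.35 and 10.1 on the MMP13 matrix, above native in all 4 protease-treated libraries at 4 to 10 reads per library (log2 fold 0.86 on each, SE 0.79).

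The proliferation markers Mki67 and Top2a overlapped with native on both treated matrices. On the MMP13 matrix Pcna, given above, lay wholly below native, while Birc5 lay wholly above. Of all tested genes 18.6% lay wholly below and 18.9% wholly above native there. Mki67, the Ki-67 antigen, was at 15.8 and 21.1 units on the native matrix, 16.1 and 26.4 on the MMP1 and 17.6 and 16.8 on the MMP13 matrix. Top2a, the topoisomerase of replicating and mitotic chromosomes, was at 65.6 and 106 units on the native matrix, 90.5 and 97.2 on the MMP1 and 79.4 and 89.0 on the MMP13 matrix. Both treated groups of Top2a lie between its native libraries, with log2 folds of 0.16 (95% interval -0.35 to 0.68) and 0.01 (-0.50 to 0.52).

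The kinetochore protein gene Cenpf was at 20.7 and 12.8 units on native, 20.4 and 8.40 with MMP1 and 15.4 and 15.1 with MMP13, all overlapping. Of the APC/C genes, the activator Cdc20 was at 24.3 and 55.1 units on the native matrix, 40.9 and 39.6 on the MMP1 and 58.1 and 31.9 on the MMP13 matrix. Its native pair and its MMP13 pair both span its MMP1 pair. Ube2c, the ubiquitin-conjugating enzyme of the APC/C, was at 36.5 and 34.7 units on the native matrix, 43.8 and 44.4 on the MMP1 and 34.6 and 52.1 on the MMP13 matrix. Its MMP1 libraries lie above native with a log2 fold of 0.30 (SE 0.36), and its MMP13 libraries span both groups.

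**Figure D3:**
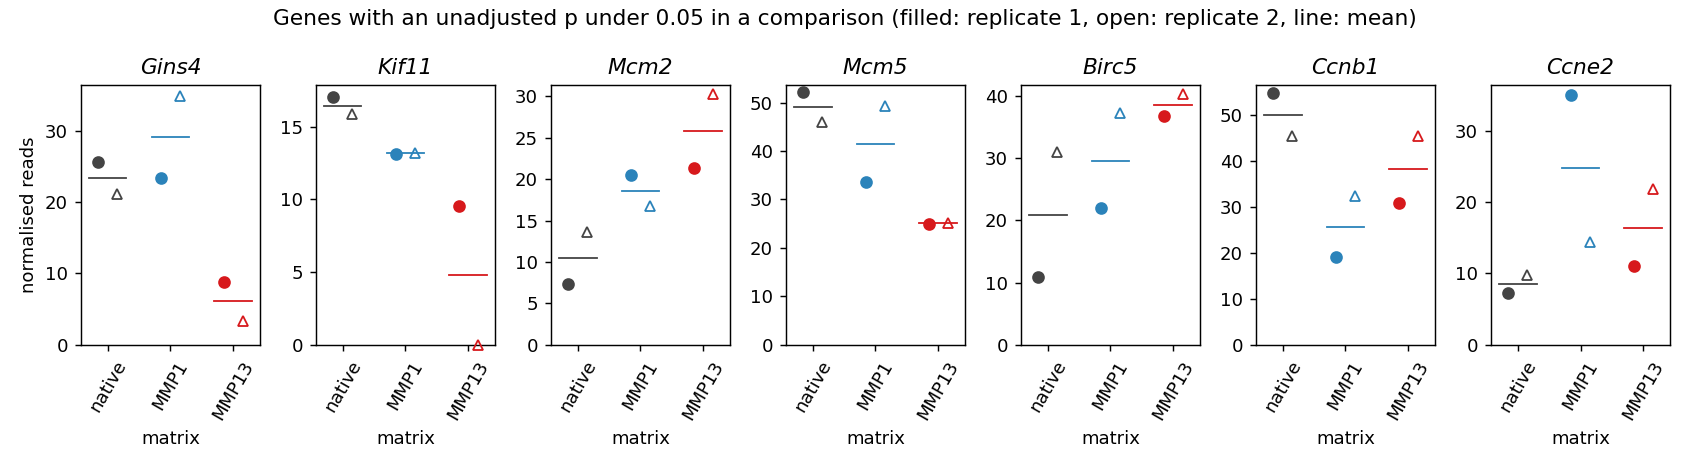
Normalised reads (vertical axes, each from 0) of the 7 genes with an unadjusted limma p under 0.05 in a comparison, by matrix, with filled points for replicate 1, open points for replicate 2 and lines for group means. Gins4 and Mcm5 are lowest in both MMP13 libraries, Kif11 is at 9.56 and 0 units there, and Ccnb1 is lowest on the MMP1 matrix.

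By phase, the median log2 fold lay between -0.15 and 0.16. The median level of a phase had an SD between replicate libraries of 0.49 for G1, 0.075 for S and 0.30 for G2/M (log2 scale, pooled over the groups). For G1 and G2/M a median fold near 0 thus bounds a shift only loosely. For MMP1 against native it was 0.04 over 6 tested G1 genes, 0.01 over 17 S genes and 0.07 over 16 G2/M genes, beside 0.02 over all 7284 genes. For MMP13 against native it was 0.16, 0.05 and -0.05, beside 0.01 over all genes. For MMP13 against MMP1 it was 0.02, -0.15 and 0.05, beside -0.003 over all genes. The members' folds lay on both sides of 0, with 23 above and 16 below for MMP1 against native and 22 above and 17 below for MMP13 against native.

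Genes whose libraries do not overlap between groups were common in the whole table, and the cell cycle genes had shares of that order. The share of all tested genes with every treated library on the same side of both native ones was not counted. That pattern, given for single genes above and below, thus has no background here. Of the 39, 6 (15.4%) lay wholly above native and 4 (10.3%) wholly below on the MMP1 matrix, while 19.6% and 18.8% of all tested genes did. On the MMP13 matrix 6 (15.4%) lay wholly above and 7 (17.9%) wholly below native, while 18.9% and 18.6% of all tested genes did. Between the proteases 3 (7.69%) were wholly higher and 7 (17.9%) wholly lower with MMP13, beside 15.9% and 15.4%. The 7 lower ones were the S genes Mcm5, Pcna, Rrm2 and Gins4 (4 of 17, 23.5%) and the G2/M genes Aurkb, Top2a and Kif11 (3 of 16, 18.8%). On the MMP1 matrix 0 of 17 S genes lay wholly below native and 3 (17.6%) above. For the G2/M genes these were 4 of 16 (25%) and 2 (12.5%). On the MMP13 matrix 4 of 17 S genes (23.5%) lay wholly below native and 2 (11.8%) above. For the G2/M genes these were 3 of 16 (18.8%) and 2 (12.5%).

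The depth allowed a bound for some genes only. The 95% interval of the log2 fold lay inside -1 to 1, that is within a change of 2-fold, for 15 of 39 genes on the MMP1 and 14 of 39 on the MMP13 matrix. Both sets included Ccnd1, Ccnd3, Cdk4, Cdt1, Mcm4, Mcm6, Mcm7, Pcna, Plk1 and Top2a. For the other 24 and 25 genes a change of 2-fold is inside the interval or beyond it. The limma fit gave genes of like level like errors, whatever the gap between a gene's own replicates, so intervals of genes with scattered replicates may be too narrow. In GRCr8 the spans of 14 of the 42 genes overlap that of another gene, so their reads could be shared. Among them are Ccnd3, Cdk4, Mcm6, Mcm7 and Plk1.

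**Figure D4:**
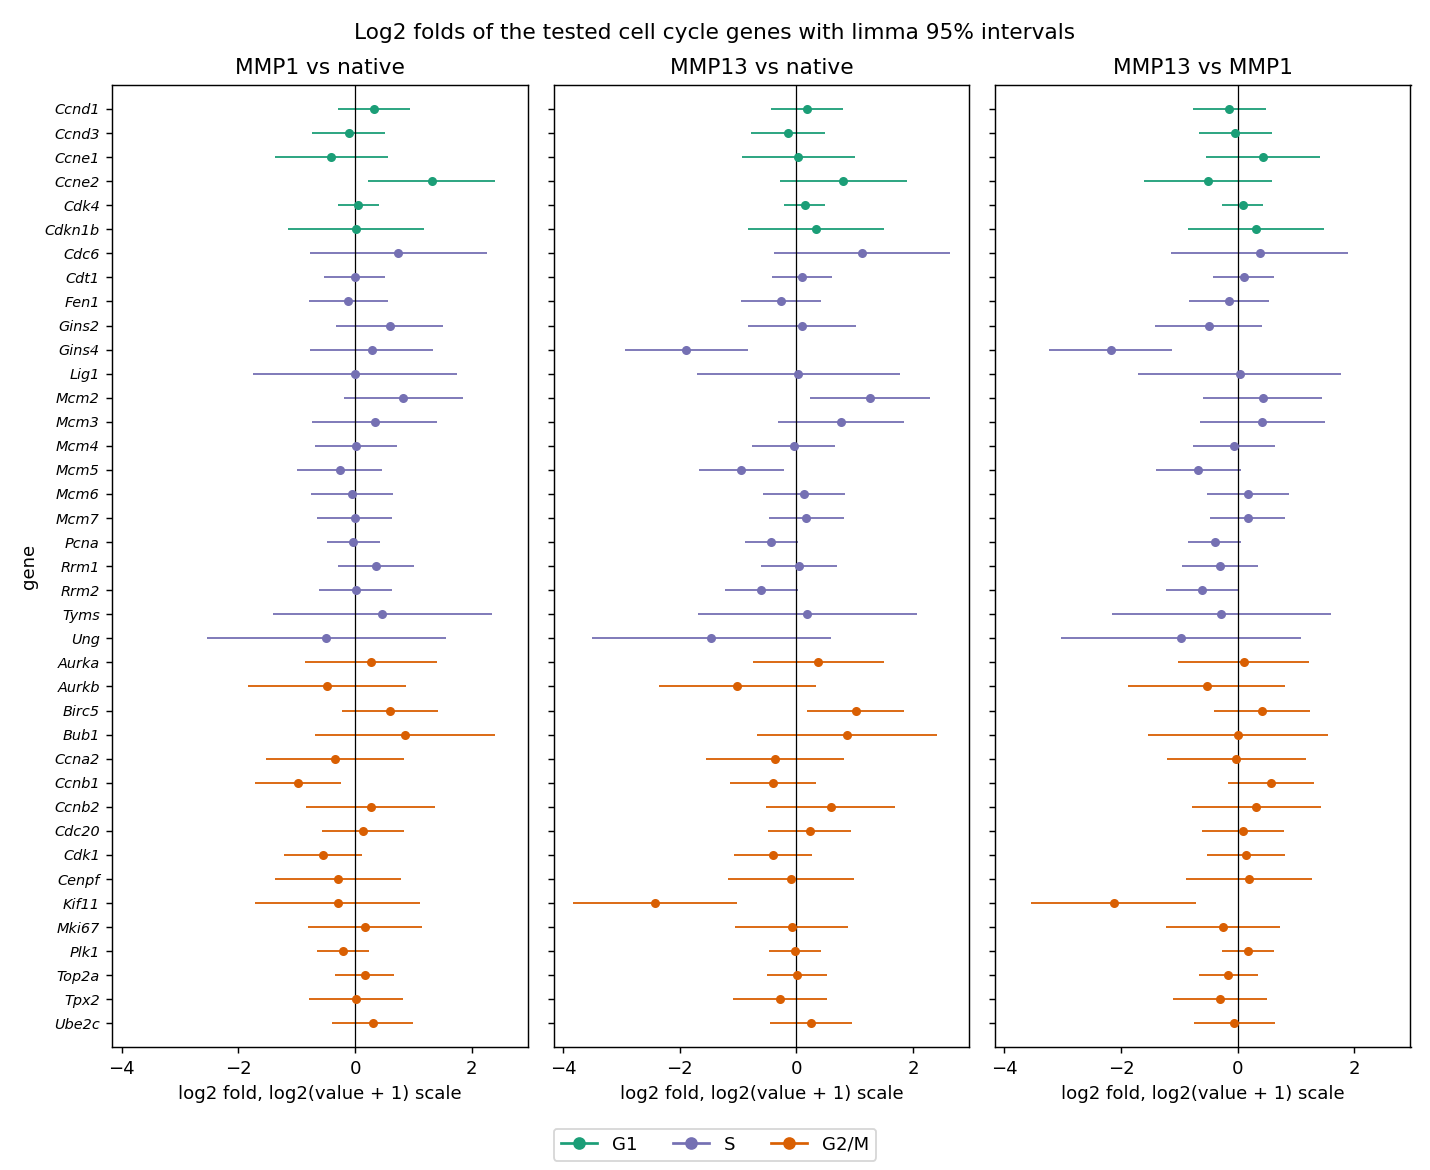
Log2 fold on the log2(units + 1) scale (horizontal axis) of the 39 tested cell cycle genes (vertical axis, coloured by phase) in the 3 comparisons, with points for the estimate and lines for limma 95% intervals. Most intervals cross 0, and the estimates farthest from it are those of Kif11 (-2.42 and -2.12) and Gins4 (-1.89 and -2.17) for MMP13 against native and against MMP1.

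Other genes of the cycle, from 4 further lists, did not pass either. Of the G1/S regulators 0 of 10 tested passed in either comparison with native, of further replication genes 0 of 33, of further mitotic genes 0 of 41, and of p53 targets and growth arrest genes 0 of 20. By limma at an unadjusted p under 0.05, the replication list had 2 higher and 2 lower on the MMP1 matrix and 1 higher and 2 lower on the MMP13 matrix. The mitotic list had 0 higher and 1 lower, then 0 higher and 2 lower, and the G1/S list 0 in either direction on both. The p53 and growth arrest list had 2 higher and 2 lower of 20 (20%), then 1 higher and 1 lower (10%). Over all tested genes the shares were 8.24% and 8.05%, and for the replication list 12.1% and 9.09%. Their median log2 folds lay between -0.05 and 0.29, beside 0.02 and 0.01 over all genes. The genes named below have the smallest p of their lists, a choice that favours libraries lying apart.

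In the replication list, thymidine kinase Tk1 was at 29.2 and 29.4 units on the native matrix, 65.7 and 46.8 on the MMP1 and 66.9 and 35.3 on the MMP13 matrix, with all treated libraries above native (log2 fold 0.90 on the MMP1, adjusted p = 0.349). The primase subunit Prim2 was at 23.1 and 18.1 units on the native matrix, 5.84 and 4.80 on the MMP1 and 9.56 and 1.68 on the MMP13 matrix, with all treated libraries below native (log2 fold -1.77 and -2.01, adjusted p = 0.436 and 0.313). Geminin, Gmnn, which blocks Cdt1, was at 51.1 and 37.7 units on the native matrix, 23.4 and 25.2 on the MMP1 and 19.9 and 25.2 on the MMP13 matrix, with all treated libraries below native (log2 fold -0.94 on the MMP13, adjusted p = 0.489).

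In the mitotic list, the kinesin gene Kif23, needed for cytokinesis, was at 35.3 and 18.1 units on the native matrix, 10.2 and 8.40 on the MMP1 and 20.6 and 47.0 on the MMP13 matrix (log2 fold -1.36 on the MMP1, adjusted p = 0.288). The phosphatase gene Cdc25c was at 12.2 and 6.04 units on the native matrix, 0 and 2.40 on the MMP1 and 3.68 and 0 on the MMP13 matrix, at 0 to 10 reads per library, with all treated libraries below native (log2 fold -2.38 on the MMP1, SE 1.31, adjusted p = 0.648). Securin, Pttg1, was at 63.2 and 63.4 units on the native matrix, 65.7 and 48.0 on the MMP1 and 46.3 and 23.5 on the MMP13 matrix (log2 fold -0.92 on the MMP13, adjusted p = 0.298). Ckap2 was at 36.5 and 36.2 units, then 16.1 and 36.0, then 20.6 and 15.1, with all treated libraries below native (-1.00 on the MMP13, adjusted p = 0.489).

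Among G1/S regulators E2f4, a repressive E2F, was at 24.3 and 13.6 units on the native matrix, 7.30 and 9.60 on the MMP1 and 14.7 and 20.2 on the MMP13 matrix (log2 fold -1.03 on the MMP1, adjusted p = 0.648). Cks1b, a cofactor of cyclin kinases, was at 13.4 and 12.8 units, then 20.4 and 25.2, then 17.6 and 25.2, with all treated libraries above native (log2 fold 0.75 and 0.65). Myc had a log2 fold of 0.73 on the MMP13 matrix (adjusted p = 0.754), where its libraries, at 18.4 and 43.7 units, overlap native at 21.9 and 12.8 and MMP1 at 21.9 and 13.2. Of the p53 targets, the pro-death gene Bax was at 10.9 and 22.6 units on the native matrix, 36.5 and 49.2 on the MMP1 and 34.6 and 30.2 on the MMP13 matrix, all treated libraries above native (log2 fold 1.37 and 0.99, adjusted p = 0.159 and 0.463). Zmat3 (log2 fold -1.62 on the MMP1, adjusted p = 0.159) and Gadd45a (-1.14 on the MMP13, adjusted p = 0.547) had values of 3.6 units in MMP1 replicate 2 and 1.68 units in MMP13 replicate 2 that stood apart from their own replicates, at 23.4 and 39.7 units. All treated libraries of Zmat3 lie below native, at 31.6 and 31.7 units, with 23.5 and 25.2 on the MMP13 matrix.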

How the data were processed

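RNA was measured by 3' end sequencing in 6 libraries of Rat-1 fibroblasts, 2 per matrix, grouped and numbered by their titles. The deposited table holds a signal: reads per gene over a size factor of the library. Dividing every nonzero entry by the smallest one of its library gave whole reads for 100% of entries, within 0.01. The submitters' processing notes list bcl2fastq, TopHat, DESeq and the rat build rn5. How genes were counted, with which annotation, by strand or not, and whether molecular identifiers were collapsed is not given in the sources used here.

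Tests used limma 3.58.1 in R 4.3.3 (eBayes with intensity trend) on log2(value + 1), with 1 coefficient per group and all 6 libraries, for genes with at least 5 units in at least 2 libraries, adjusted by Benjamini-Hochberg over all 7284. Folds on this scale understate changes of low genes. Prior degrees of freedom were infinite. Recovered reads were tested with edgeR 4.0.16 (quasi-likelihood, TMM) and DESeq2 1.42.0 (Wald) as alternatives. Scripts were tested on simulated data. Replicates differed by more than sampling noise (chi-square per degree of freedom 2.10 to 2.53), and no member's reads were identical to another gene's. The members, lists and alternatives were chosen with earlier results of these data known. Values in every library are given for each tested member, read ranges for the others, and of each further list the 2 genes with the smallest p in either comparison with native. Promoters come from RefSeq, GRCr8, and gene spans of that build served only to find neighbours.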

Additional observations from a re-analysis of the deposited data

How the results depend on the processing

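Over the 17 alternatives, 0 cell cycle genes passed for MMP1 against native, and 0 to 2 passed with a library left out for MMP13 against native and for MMP13 against MMP1. The 2 were Gins4 and Kif11, without MMP13 replicate 1, where the group rests on 1 library that is assumed to vary like the others. Folds of uncalled members turned sign in 49, 32 and 32 of 652 refits per comparison. The count of all genes called (11, 30 and 3 for MMP1 against native, MMP13 against native and MMP13 against MMP1) was 3 and 8 in the first pair with TMM factors, 0, 0 and 0 by limma without trend, 1 by DESeq2 in the first and the last, 18 with a pseudocount of 0.5 and 13 with no filter in MMP13 against native, and 18 and 1 with only the 2 groups compared in the second and the last. With a library left out it ran from 3 to 17, 6 to 35 and 1 to 27. At an unadjusted p under 0.05, limma without trend had 0, 4 and 1 members. The median log2 fold of S genes with a library left out ran from -0.028 to 0.149, from -0.26 to 0.12 and from -0.149 to -0.0084. Other phase medians moved by less than the spread between replicates, which was wide at 0.49 for G1 and 0.30 for G2/M. The G1 median for MMP13 against native ran from -0.01 to 0.39. Without the most abundant gene of each phase (Cdk4, Pcna and Plk1), the share of reads on native, MMP1-treated and MMP13-treated matrix was 0.0563%, 0.0651% and 0.0631% for G1, 0.188%, 0.195% and 0.177% for S and 0.162%, 0.153% and 0.154% for G2/M. The replicate block gave 11, 21 and 2 genes called and 0 members. Same-numbered libraries did not deviate together (r = 0.0059, -0.072 and -0.045 over genes). At this depth a low r cannot tell whether they share a culture or a batch, and the labels do not say. Depth limits most members, at a median of 23 reads per gene and library.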
